A study of Mus musculus with 24 samples.

Results

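The genes of major histocompatibility complex (MHC) class I and class II antigen presentation were followed in the thymus of mice lacking p27, stathmin or both. The set held 10 genes, among 27962 gene names on the array. Class I was represented by the heavy chains H2-K1 and H2-D1, their light chain B2m and the peptide transporter subunit Tap1. The class II members were the chains H2-Aa, H2-Ab1 and H2-Eb1, the peptide exchange subunit H2-DMa, the invariant chain Cd74 and the transcriptional activator Ciita. Members were all gene probes of the array that carried one of these symbols, and there were 19 probes among 41174 gene probes, 9 for class I and 10 for class II. The array names 9 of the 10 genes by these symbols, with 18 probes. The probe for Ciita carries the older name C2ta and was matched through its transcript accession.

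Class I molecules are carried by nearly all nucleated cells and show peptides from the cell's interior to CD8 T cells. Tap1 and its partner subunit move those peptides into the endoplasmic reticulum, where B2m pairs with the heavy chain. Class II molecules are largely limited to thymic epithelium, dendritic cells, B cells and macrophages, and show peptides from the endocytic route to CD4 T cells. Cd74 guards the class II groove until H2-DM helps to exchange its fragment for a peptide, and Ciita switches on the class II genes through factors bound at their X and Y boxes. In the thymus both classes select developing T cells. Double-positive thymocytes, which make up most of the organ, carry little class I and in mice essentially no class II. C57BL/6 mice carry a defective H2-Ea gene, so that the H2-Eb1 chain lacks its partner in this strain.

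Thymus RNA came from 24 C57BL/6 mice 15 weeks old, with 6 mice in each of 4 genotypes: wild type, stathmin knockout, p27 knockout and the double knockout of both genes. p27 is the cyclin-dependent kinase inhibitor encoded by Cdkn1b, and stathmin is the tubulin-binding protein encoded by Stmn1. Each genotype held females and males, and the labels do not say which mouse was which. The labels give no account of the making of either allele. Every array set the thymus of 1 mouse (Cy5) against the same pooled RNA of fibroblasts from every genotype (Cy3), so a log2 ratio of 0 means the level of the fibroblast pool and 1 unit is a doubling. The whole organ was measured, so fewer cells of a type and less RNA per cell cannot be told apart. Ratios of different probes are not levels on 1 scale, and genes are therefore not ranked by level.

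Thymocyte markers were far above the fibroblast pool, as the tissue label asks: in wild type the mean log2 ratio was 8.85 for Cd8b1, 7.65 for Lck and 5.98 for Rag1. The knocked-out genes followed the labels at 1 probe of each, picked after their values were seen. Stmn1 (A_52_P319161) averaged 3.10 in wild type and 2.45 in the p27 knockout (2.90 without replicates 5 and 6), but -3.19 in the double knockout and -2.95 in the stathmin knockout. Cdkn1b (A_51_P146126) averaged 1.80 in wild type (n = 5) and 1.64 in the stathmin knockout, but 0.30 in the p27 knockout (0.17 without those 2 mice) and -0.50 in the double knockout (n = 5). Cdkn1b A_51_P169173 and Stmn1 A_51_P495641 were also lower in the genotypes lacking the gene, while Cdkn1b A_52_P673863 averaged -0.50 in wild type, -0.99 in the p27 knockout and -0.61 in the double knockout. Brightness, taken as the 99th percentile of the Cy5 signal in kilo-units of the scanner, ran from 56.3 to 339.8 on 22 arrays. p27 knockout replicates 5 and 6 stood apart at 50.7 and 19.38, with mean correlations with the other arrays of 0.5581 and 0.2095, against 0.7696 to 0.8587 for the 22 others. Mean brightness was 247.8 ± 45.04 for double knockout arrays, 239.5 ± 71.79 for stathmin knockout, 190.6 ± 92.0 for wild-type and 86.37 ± 53.25 for p27 knockout arrays (SD, n = 6 each). Comparisons of the members with the p27 knockout are therefore given with and without replicates 5 and 6. The 6 slides carried 4 arrays apiece, 1 per genotype, and a genotype kept its place on the slide, so effects of place and of genotype cannot be told apart.

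The upstream sequence of 7 members was searched for elements known from the control of MHC genes, and 6 of these are shown. Each line gives the 250 bases before the annotated start, 5′ to 3′ along the gene, from RefSeq on GRCm38.p6, with letters matching a searched motif in capitals. The motifs, searched on both strands, were the Y box core CCAAT, the X box core (11 letters, 3 of them free) and the interferon-stimulated response element. The last was searched only as GAAA and again GAAA with 2 free letters between. For H2-K1 the second of its 2 annotated starts is shown.
H2-K1 (chr17:34000334-34000583, minus strand): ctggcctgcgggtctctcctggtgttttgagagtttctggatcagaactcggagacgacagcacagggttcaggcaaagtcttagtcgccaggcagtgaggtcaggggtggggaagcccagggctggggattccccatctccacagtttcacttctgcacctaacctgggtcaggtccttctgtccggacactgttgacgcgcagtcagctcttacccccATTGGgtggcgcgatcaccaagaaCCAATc
H2-D1 (chr17:35262844-35263093, plus strand): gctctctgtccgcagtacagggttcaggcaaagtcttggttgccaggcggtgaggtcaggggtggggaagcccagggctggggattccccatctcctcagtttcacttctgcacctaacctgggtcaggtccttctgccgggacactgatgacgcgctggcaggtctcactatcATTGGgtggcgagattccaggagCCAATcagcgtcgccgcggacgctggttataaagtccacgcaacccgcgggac
B2m (chr2:122147437-122147686, plus strand): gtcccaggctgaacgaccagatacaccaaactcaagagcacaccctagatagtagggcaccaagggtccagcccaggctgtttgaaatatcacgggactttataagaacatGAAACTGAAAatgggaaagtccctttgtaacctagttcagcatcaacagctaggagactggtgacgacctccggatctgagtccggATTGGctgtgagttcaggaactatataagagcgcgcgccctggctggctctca
Tap1 (chr17:34187306-34187555, plus strand): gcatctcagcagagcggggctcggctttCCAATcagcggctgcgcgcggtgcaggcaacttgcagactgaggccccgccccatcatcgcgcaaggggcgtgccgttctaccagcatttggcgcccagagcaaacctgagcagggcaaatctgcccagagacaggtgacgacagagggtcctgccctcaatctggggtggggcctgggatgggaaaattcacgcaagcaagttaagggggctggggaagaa
H2-Aa (chr17:34287824-34288073, minus strand): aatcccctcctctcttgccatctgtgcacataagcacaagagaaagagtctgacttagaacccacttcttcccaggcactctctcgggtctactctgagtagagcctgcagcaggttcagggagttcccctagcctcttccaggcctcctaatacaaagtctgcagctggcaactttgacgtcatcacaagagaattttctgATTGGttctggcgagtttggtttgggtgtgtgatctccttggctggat
H2-Eb1 (chr17:34305617-34305866, plus strand): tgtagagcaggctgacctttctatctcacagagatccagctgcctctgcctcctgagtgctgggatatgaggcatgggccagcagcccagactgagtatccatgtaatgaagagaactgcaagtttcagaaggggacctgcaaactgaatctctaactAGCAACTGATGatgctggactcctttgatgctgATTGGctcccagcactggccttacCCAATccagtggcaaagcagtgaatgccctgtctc
Of the 10 members, 7 had an upstream sequence that was kept here. All 7 held CCAAT on one strand or the other before at least 1 annotated start, as did 33.8% of all 32851 upstream sequences of that length. In H2-Aa it lay 48 bases and in B2m 53 bases before the start. A match to the X box core was found in H2-Eb1 alone, 92 bases before the start. It was followed by the Y box on the other strand at 59 bases, and 0.816% of all upstream sequences held an X box match. A match to the interferon pattern was found in B2m alone, 139 bases before the start, against 2.98% of all. No match overlapped a match to another motif. The upstream sequence of Tap1 shares 225 bases with that of Psmb9, an immunoproteasome subunit transcribed from the opposite strand. A match is a run of letters and shows no binding. Variants of the X box and of the interferon element in other letters were not searched. The lack of a match, as in H2-K1, H2-D1 or H2-Aa, therefore does not show that an element is absent.

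At their brightest probes the class I heavy chains were above the fibroblast pool in every mouse but differed widely among wild-type mice. H2-K1 has 3 probes, and the brightest (A_51_P198434, printed 10 times on each array) read 2.49 to 4.76 in wild type, median 3.81. It read 0.27 to 3.98 in the p27 knockout (median 3.88), 3.67 to 5.00 in the stathmin knockout (median 4.03) and 3.76 to 4.62 in the double knockout (median 4.25). The groups overlapped, and the lowest value was p27 replicate 6. H2-D1 (A_51_P496996) read 2.09 to 4.05 in wild type (median 2.76) and 0.65 to 2.91 in the p27 knockout (median 2.39). It read 2.05 to 4.17 in the stathmin knockout (median 3.12) and 3.23 to 3.70 in the double knockout (median 3.51). All 6 double knockout mice lay above all 6 p27 knockout mice for this probe, and the wild-type and stathmin knockout mice spanned both. How many of all probes separate these genotypes in this way was not counted, here or for the members below. The second H2-D1 probe (A_52_P246277) is described in the array's annotation as a thymus-leukaemia antigen messenger RNA, and it read between -0.39 and 1.49 in all 24 mice. Class I heavy chains are close copies of one another, so each of these probes may read several of them.

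B2m, which fibroblasts also make in quantity, lay on both sides of the fibroblast pool. Its brightest probe (A_51_P129012) read -0.64 to 2.46 in wild type (median 1.29) and -0.81 to 1.09 in the p27 knockout (median 0.24). It read 0.48 to 2.32 in the stathmin knockout (median 1.34) and 1.33 to 2.60 in the double knockout (median 1.81). The double knockout and the p27 knockout did not overlap, with or without replicates 5 and 6. The probe A_51_P129006 ran from -3.11 to 0.82 in the p27 knockout and from 0.79 to 2.01 in the double knockout, whose lowest mouse lay just under the highest p27 knockout mouse. The third B2m probe (A_52_P105594), which carries the name B2m but is described as an embryo-head clone, ranged from -1.15 to 2.79 within the double knockout alone. Tap1 (A_51_P100327) read 1.66 to 3.31 in wild type (median 2.47), 1.75 to 3.70 in the stathmin knockout (median 2.79) and 2.71 to 3.77 in the double knockout (median 2.97). In the p27 knockout it read 2.57, 2.33, 1.55 and 2.46 in replicates 1 to 4 and -2.09 and -2.31 in replicates 5 and 6.

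The class II chains were far above the fibroblast pool in the 22 mice other than p27 knockout replicates 5 and 6. H2-Aa (A_51_P119760) read 5.76 to 7.01 in wild type (median 6.51), 5.55 to 6.82 in the stathmin knockout (median 6.64) and 6.05 to 6.73 in the double knockout (median 6.47). In the p27 knockout, replicates 1 to 4 read 6.82, 6.96, 6.96 and 6.90, replicate 5 read 3.31 and replicate 6 read -0.08. Without replicates 5 and 6, the p27 knockout was near the top of the range of the other genotypes. H2-Ab1 (A_52_P683598) read 4.57 to 5.97 in wild type (median 5.29), 4.90 to 5.76 in the stathmin knockout (median 5.28) and 5.02 to 5.49 in the double knockout (median 5.35). Its p27 knockout values were 5.63, 6.01, 6.17, 5.46 and 6.63 in replicates 1 to 5 and -1.26 in replicate 6. H2-Eb1 (A_51_P393226) read 3.72 to 5.00 in wild type (median 4.31), 3.96 to 4.82 in the stathmin knockout (median 4.41) and 4.19 to 4.48 in the double knockout (median 4.34). In the p27 knockout it was 4.95, 5.03, 5.02, 4.56 and 5.27 in replicates 1 to 5, all above all 6 double knockout mice, and -0.03 in replicate 6.

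The invariant chain Cd74 (A_51_P284608) followed the same course, at 5.34 to 6.83 in wild type (median 6.35), 5.79 to 6.80 in the stathmin knockout (median 6.31) and 6.17 to 6.52 in the double knockout (median 6.33). Its p27 knockout values were 6.57, 6.88, 6.81, 6.40, 7.51 and -1.38 in replicates 1 to 6, so the highest and the lowest mouse of the series were replicates 5 and 6 of that genotype. H2-DMa (A_51_P473734) was spread more like class I, at 2.01 to 3.93 in wild type (median 3.19), 2.07 to 4.08 in the stathmin knockout (median 3.41) and 3.12 to 3.90 in the double knockout (median 3.55). Its p27 knockout values were 2.72, 3.04, 2.28, 2.69, 0.35 and -1.66, all below all 6 double knockout mice. Ciita (A_52_P109941) read 2.28 to 3.34 in wild type (median 2.94), 1.49 to 3.83 in the stathmin knockout (median 3.40) and 2.94 to 3.95 in the double knockout (median 3.64). In the p27 knockout it read 4.16, 4.01, 2.14, 2.52, 2.94 and 0.31, which spanned the other genotypes at both ends.

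**Figure D1:**
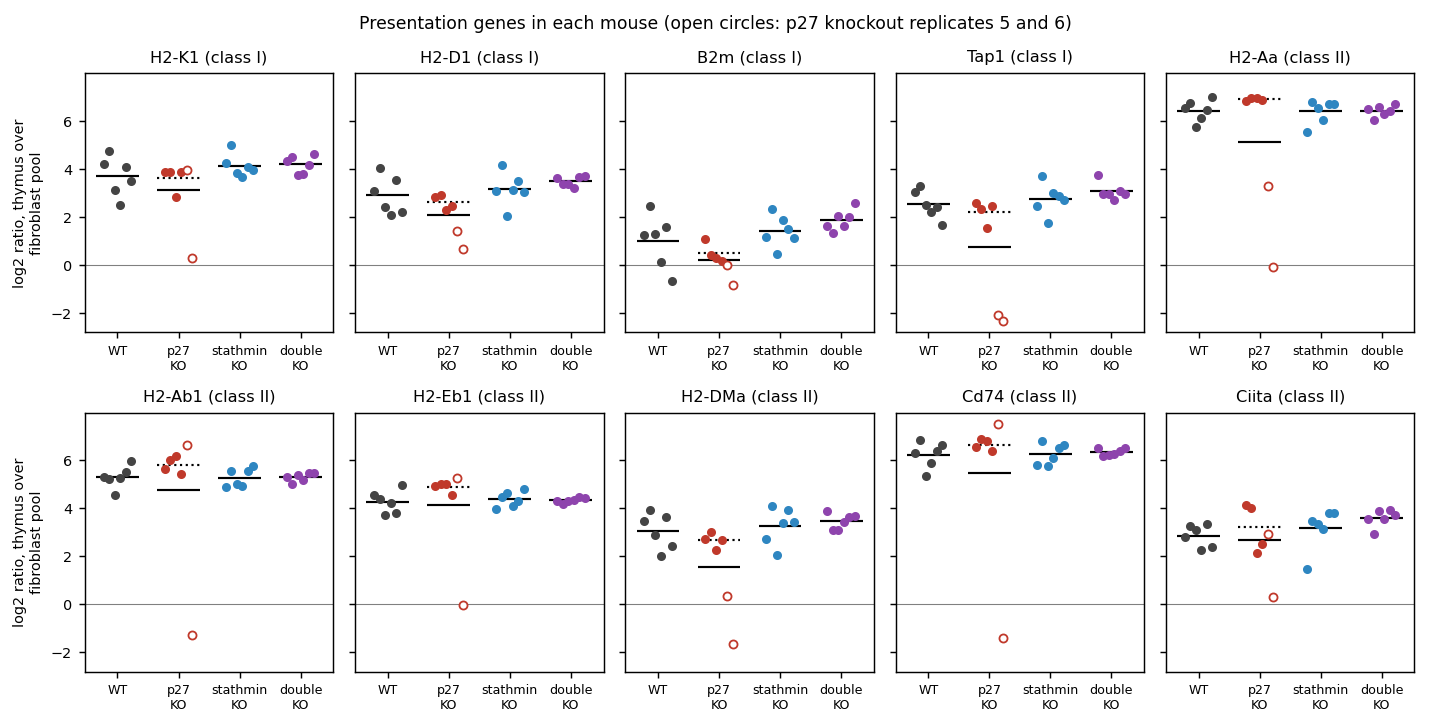
Log2 ratio of thymus over the fibroblast pool (vertical axis) for the brightest probe of each of the 10 members, 1 point per mouse, 6 mice per genotype. Solid bars are means over 6 mice and dotted bars are p27 knockout means without replicates 5 and 6 (open circles). H2-Aa sits at 5.55 or above in all mice but those 2, while H2-D1 in the double knockout (3.23 to 3.70) lies above all p27 knockout mice. The share of all probes that separate these genotypes in this way was not counted.

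In the p27 knockout, probes of 1 gene did not always tell the same story. In replicate 5 the 4 H2-Ab1 probes A_52_P683598, A_51_P215242, A_51_P215237 and A_52_P570717 read 6.63, -0.78, 4.44 and -1.25, a range of 7.88, against ranges of 0.96 to 1.66 on the 22 arrays other than replicates 5 and 6. The 2 H2-Aa probes A_51_P119760 and A_52_P343306 read 3.31 and 0.66 there, a difference of 2.65, against at most 0.62 on those 22 arrays. The 3 H2-K1 probes spanned 4.39 in replicate 5 and 3.35 in p27 knockout replicate 4, with a median of 1.35 over the 22 arrays. In replicate 6 the H2-Ab1 probes differed by only 0.60, all between -1.38 and -0.79. Repeated spots of a single probe agreed closely: the 10 spots of H2-K1 A_51_P198434 had a median SD of 0.13 per array, and those of H2-Ab1 A_51_P215237 also 0.13. Disagreement between probes in replicate 5 was therefore much larger than the scatter between spots, and its cause was not tested.

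**Figure D2:**
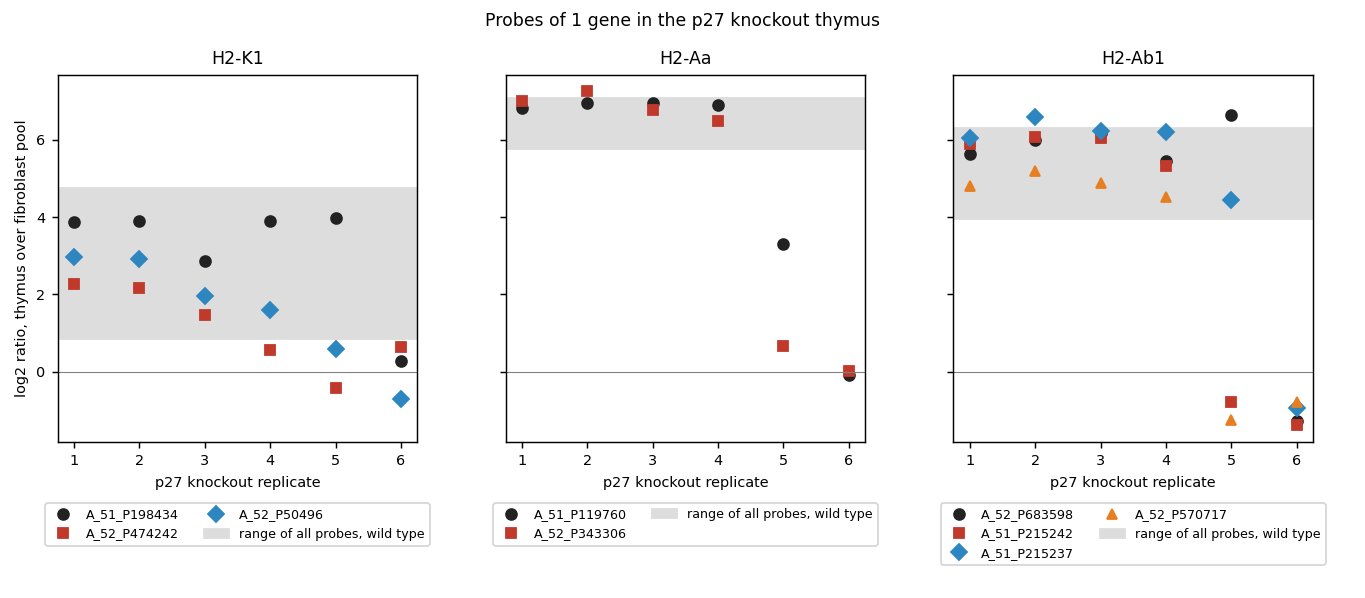
Log2 ratio (vertical axis) of every probe of H2-K1, H2-Aa and H2-Ab1 in the 6 p27 knockout mice (horizontal axis, replicate number), with the range of all probes of that gene in wild type in grey. The 4 H2-Ab1 probes lie within 1.66 of one another in replicates 1 to 4, spread over 7.88 in replicate 5 and fall together below 0 in replicate 6.

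Against wild type, no presentation gene passed the test in any knockout. Over all 24 arrays, limma's moderated test with Benjamini-Hochberg adjustment over 35185 probes (threshold 0.05) called 0 of the 19 member probes in the p27 knockout, where 0.00568% of all probes were called. At an unadjusted p under 0.05, 8 members were reached, all lower, against 29.3% of all probes. The members' median change was -0.95, with -0.82 for class I and -1.13 for class II, and 0.07 over all probes. With wild-type replicate 6, p27 knockout replicate 1 or p27 knockout replicate 4 left out, 2, 2 and 1 members were called, all lower, when 11.7%, 11.2% and 10.9% of all probes were called. The median changes rested on replicates 5 and 6. Without them 0 members were called (0.00284% of all probes), the class I median was -0.30, and the class II median turned to 0.41, with 9 of 10 class II probes above 0. The 4 probes then at an unadjusted p under 0.05, against 13.3% of all probes, were all class II and higher: 3 of H2-Ab1, and H2-Eb1 at 0.61 (95% interval 0.17 to 1.05, adjusted p = 0.375 by limma). On the 4 slides whose p27 knockout array was not replicate 5 or 6, H2-Eb1 and Cd74 were higher than the wild-type array of the same slide on 4 of 4. H2-Ab1 A_52_P683598 and A_51_P215242 were also higher on 4 of 4. The other H2-Ab1 probes and both H2-Aa probes were higher on 3 of 4, Ciita on 2 of 4 and H2-DMa on 1 of 4. The share of all probes higher on 4 of 4 was not counted.

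The stathmin knockout showed no called member, at 0.00284% of all probes, and 0 members reached an unadjusted p under 0.05, against 2.37% of all probes. The class I median was 0.40 and the class II median 0.09. H2-K1 (A_51_P198434) differed from wild type by 0.44 (95% interval -0.56 to 1.44) and H2-Aa (A_51_P119760) by -0.04 (95% interval -1.71 to 1.64), so a doubling of either stayed within these intervals. Without p27 replicates 5 and 6, which widen the shared spread, the interval for H2-Aa narrowed to -0.48 to 0.41.

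In the double knockout against wild type, 0 members were called (0.0114% of all probes). All 9 class I probes lay above 0, with a median of 0.63, and 8 of 10 class II probes did, with a median of 0.09, against -0.02 over all probes. An unadjusted p under 0.05 was reached by 2 class I probes, both higher, against 4.63% of all probes. These were B2m A_51_P129012, at 0.85 (95% interval 0.01 to 1.69, adjusted p = 1 by limma), and H2-D1 A_52_P246277, at 0.85 (adjusted p = 0.437). The latter, described as a thymus-leukaemia antigen messenger RNA, had Cy5 well above background on 4 of 6 wild-type arrays. Without p27 replicates 5 and 6 in the fit, 0 members were again called (0.162% of all probes) and 3 class I probes were at an unadjusted p under 0.05 (8.67% of all), the third being B2m A_51_P129006. The double knockout against the stathmin knockout had 0 members called (0.00568% of all probes) and 0 at an unadjusted p under 0.05 (1.16% of all), with medians of 0.32 for class I and 0.03 for class II.

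Class I genes were higher in the double knockout than in the p27 knockout, and this was the comparison in which members were called. Over all arrays 8 of 19 member probes passed, all higher, when 13.3% of all probes passed as higher and 16.8% as lower. They were 7 of the 9 class I probes and H2-DMa, the single class II probe of 10. The class I median was 1.67 and the class II median 1.15, against -0.08 over all probes. B2m A_51_P129012 rose by 1.68 ± 0.41 (SE, adjusted p = 0.00703 by limma, n = 6 against 6), and its probe A_51_P129006 by 1.67 ± 0.45. H2-K1 rose by 1.99 ± 0.44 at A_52_P474242 and by 1.84 ± 0.48 at A_52_P50496, while its brightest probe changed by 1.06 with an adjusted p of 0.0945 and was not called (0.0439 with slide as a block). H2-D1 A_51_P496996 rose by 1.40 ± 0.38 and Tap1 by 2.32 ± 0.67. H2-DMa, which with its partner chain exchanges peptides on class II, rose by 1.91 ± 0.58 (adjusted p = 0.0194 by limma). With slide as a block, 8 members were again called, against 14.7% of all probes higher, with H2-K1 A_51_P198434 gained and H2-D1 A_52_P246277 (adjusted p = 0.0555) lost.

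Without p27 replicates 5 and 6 the class I difference was smaller and the class II chains turned the other way. Then 4 member probes were called, all higher and all class I, when 6.04% of all probes passed as higher and 8.95% as lower. These were H2-K1 A_52_P474242 at 1.49 ± 0.44 (adjusted p = 0.0321 by limma), H2-D1 A_52_P246277 at 0.92 ± 0.26, B2m A_51_P129012 at 1.37 ± 0.44 and B2m A_51_P129006 at 1.12 ± 0.31. All 9 class I probes kept a value above 0, with a median of 0.92. The other 4 earlier calls were lost: H2-DMa was at 0.80 (adjusted p = 0.123), Tap1 at 0.85 (0.0754), H2-D1 A_51_P496996 at 0.87 (0.0851) and H2-K1 A_52_P50496 at 1.03 (0.0653). With slide as a block as well, H2-D1 A_51_P496996 (adjusted p = 0.0455) and H2-K1 A_52_P50496 (0.0418) were called and B2m A_51_P129012 (0.062) was not. The class II median was -0.28 with 3 of 10 above 0: H2-Eb1 was at -0.54 (95% interval -0.98 to -0.10, adjusted p = 0.0789) and H2-Ab1 A_52_P683598 at -0.51 (adjusted p = 0.118). Within the 4 slides left, both H2-D1 probes, H2-K1 A_52_P474242 and A_52_P50496, Tap1 and H2-DMa were higher in the double knockout on 4 of 4. So were B2m A_51_P129012 and A_51_P129006. H2-K1 A_51_P198434 was higher on 3 of 4 and B2m A_52_P105594 on 2 of 4. H2-Eb1, H2-Ab1 A_52_P683598 and A_51_P215237, and H2-Aa A_51_P119760 were lower on 4 of 4. H2-Ab1 A_51_P215242 and Ciita were higher on 2 of 4, and H2-Ab1 A_52_P570717, H2-Aa A_52_P343306 and Cd74 on 1 of 4. The share of all probes alike on 4 of 4 was not counted.

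**Figure D3:**
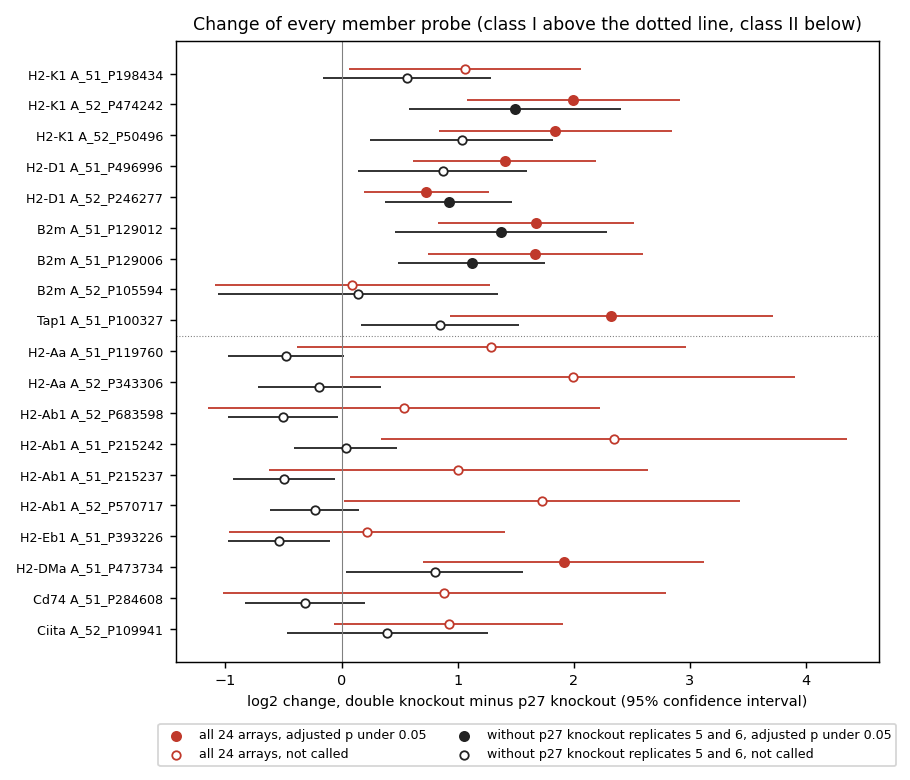
Log2 change between double knockout and p27 knockout (horizontal axis) with its 95% confidence interval for each of the 19 member probes, over all 24 arrays (red) and without p27 knockout replicates 5 and 6 (black). Filled points passed limma's test at an adjusted p under 0.05. All 9 class I probes lie above 0 in both sets, while 7 of the 10 class II probes move to below 0 without the 2 mice.

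The interaction asked whether the change with stathmin loss differed between mice with and without p27. No member was called (0 of 35185 probes over the whole array), and 5 members, all class I, reached an unadjusted p under 0.05, against 18.4% of all probes. Without replicates 5 and 6 the only member to do so was H2-Eb1, at -0.64 (unadjusted p = 0.0334, adjusted p = 0.488 by limma), against 9.79% of all probes.

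At their brightest probes H2-K1, H2-D1, Tap1 and H2-DMa moved with the brightness of the array within genotypes. For B2m, the class II chains, Cd74 and Ciita the relation did not pass the same test. The relation was examined after the values had been seen. After genotype means were taken off, over 22 arrays without p27 replicates 5 and 6, the log2 ratio of H2-DMa correlated with log2 brightness by r = 0.764 (rho = 0.667) and that of H2-D1 by r = 0.716 (rho = 0.573). For H2-K1 r was 0.707 (rho = 0.602) and for Tap1 0.636 (rho = 0.628). In 100000 permutations within genotypes the p for r was 0.00057, 0.00267, 0.00411 and 0.00553 for these 4 genes, and the values adjusted over the 10 members were 0.0057, 0.0133, 0.0137 and 0.0138. The permutation p for rho was 0.0039 for H2-DMa, 0.0229 for H2-D1, 0.0139 for H2-K1 and 0.00499 for Tap1. B2m reached r = 0.603 (permutation p = 0.0293, adjusted 0.0586; rho = 0.426, p = 0.0842). Without the 2 arrays farthest from the median brightness, r was 0.679 for H2-DMa, 0.669 for H2-D1, 0.487 for H2-K1, 0.694 for Tap1 and 0.565 for B2m.

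For the class II chains, Cd74 and Ciita, r was -0.01 for H2-Aa, -0.21 for H2-Ab1, -0.45 for H2-Eb1, 0.20 for Cd74 and 0.18 for Ciita, with permutation p between 0.147 and 0.975. H2-Eb1 reached rho = -0.514 (permutation p = 0.0427, not adjusted). Over all probes with a value, 13% had r above 0.5, and 5 of 9 class I probes and 1 of 10 class II probes did. The class I probes ran from 0.716 down to -0.15 at B2m A_52_P105594. The p27 knockout arrays were the dimmest group and the double knockout arrays the brightest. With brightness as a covariate, 0 of 19 members were called between the double and the p27 knockout, and 1 probe of all 35185 was. The brightest p27 knockout array (170.6) was dimmer than the dimmest double knockout array (200.2). In this comparison the fit therefore cannot tell brightness from genotype.

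**Figure D4:**
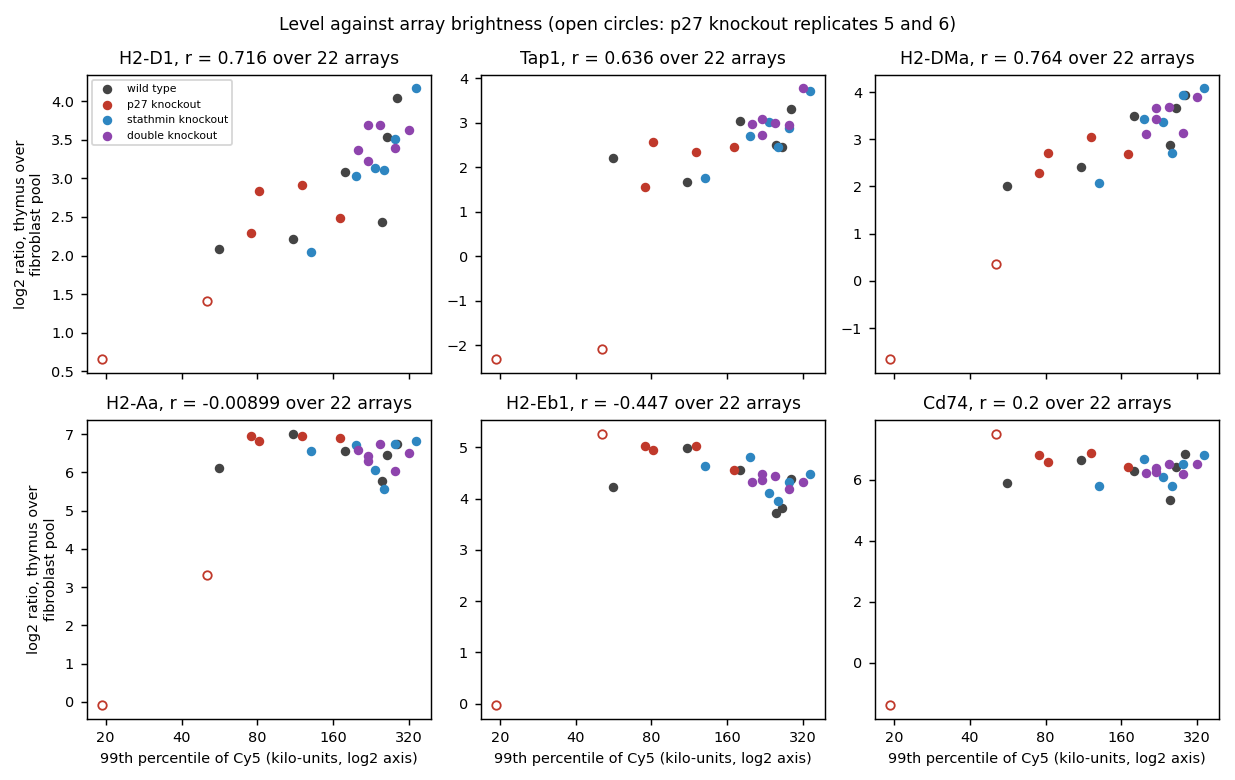
Log2 ratio (vertical axis, its own scale in each panel) against the 99th percentile of the Cy5 signal of the array (horizontal axis, log2 scale, kilo-units of the scanner) for 3 members called between double and p27 knockout and 3 that were not, 1 point per mouse, coloured by genotype. H2-D1, Tap1 and H2-DMa rise with brightness (r = 0.716, 0.636 and 0.764 over the 22 filled points after genotype means are taken off), while H2-Aa and Cd74 stay level (r = -0.01 and 0.20) and H2-Eb1 leans down (r = -0.45).

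Other genes of the same routes were read from 2 wider lists. In the double against the p27 knockout, 6 of 24 further class I genes rose and 1 fell, beside 13.3% and 16.8% of all probes. The 6 were the non-classical heavy chains H2-T23 (1.41), H2-Q2 (1.44), H2-Q7 (1.25), H2-Q10 (1.58), H2-T22 (1.23) and H2-T24 (1.49), relatives of H2-K1 and H2-D1 in sequence. The 1 that fell was Calr, the chaperone calreticulin of the peptide-loading complex, at -0.89 (adjusted p = 0.024 by limma). The list's median was 0.39, and its other members, among them the proteasome and transporter subunits, did not pass. Without p27 replicates 5 and 6, 2 of the 24 were called higher, H2-T22 at 0.91 and H2-T24 at 1.42, and 1 lower, Cd1d1 at -0.60, which presents lipids. These counts lay near the share of all probes, 6.04% higher and 8.95% lower. The list's median was then 0.15. Of 18 further class II genes measured, 4 rose, beside 13.3% of all probes: H2-DMb2, a partner chain of H2-DMa (1.44), the protease gene Ctsl, which acts in cortical epithelium and is also on the cortical marker list (1.50), Rfx5, which binds the X box (1.44), and Nfyc, a subunit of the factor that binds CCAAT (1.12). Without the 2 mice Ctsl alone was called, at 0.75 (adjusted p = 0.0279 by limma), and the list's median went from 0.80 to 0.19. In each of the other comparisons 0 genes of either list were called, with 0 to 8 at an unadjusted p under 0.05.

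Markers of cells that carry class II, of thymocytes and of other cells of the organ were read beside these results. The shares of all probes called between double and p27 knockout, given above, apply to each count. The median log2 ratio of 10 cortical thymic epithelium genes ran from 4.58 to 6.12 in wild type, 4.96 to 5.92 in the stathmin knockout and 5.25 to 5.53 in the double knockout. In the p27 knockout it was 0.19 in the lowest mouse and 5.59 to 6.75 in the 5 others. In the double against the p27 knockout 3 of the 10 were higher over all arrays, and 3 were higher and 1 lower without replicates 5 and 6. The median of 15 double-positive thymocyte genes was 5.58 to 6.81 in wild type, 5.91 to 6.41 in the double knockout, and 0.41 in the lowest and 6.50 to 7.41 in the other p27 knockout mice. Over all arrays 1 of those 15 genes was lower in the double than in the p27 knockout, with a median of 0.0066, and without replicates 5 and 6, 9 were lower, with a median of -0.98, when 8.95% of all probes were lower. Of 12 B cell genes 3 were higher over all arrays and 1 without the 2 mice, of 10 dendritic cell genes 2 and 2 (with 1 lower in each), and of 11 macrophage genes 3 and 1. Of 10 fibroblast genes 6 were lower over all arrays (median -0.81) and 0 without the 2 mice (median -0.49), and of 10 adipocyte genes 5 were higher (median 1.09) and 1 (median 0.60). The median of 12 B cell genes ran from 0.42 to 4.43 within wild type and from 0.05 to 2.58 in the p27 knockout. The part of these cells in the differences of the presentation genes was not tested.

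Genes whose level followed the members from mouse to mouse were sought over the 22 arrays, as deviations from genotype means, among 13941 genes. The mean of H2-Aa, H2-Ab1, H2-Eb1 and Cd74 was followed most closely by Nagpa (r = 0.844), Mtmr14 (0.824), H2-Oa (0.764), Irf8 (0.752) and Gimap1 (0.75). H2-Oa encodes a chain of H2-O, which restrains H2-DM, and Irf8 a transcription factor of dendritic and B cells. Over all 24 arrays H2-Oa, Irf8 and Gimap1 kept r of 0.959, 0.985 and 0.984, whereas Mtmr14 had 0.463 and Nagpa -0.324. The mean of H2-K1, H2-D1, B2m and Tap1 was followed by Gsap (0.968), H2-T23 (0.961), H2-DMb2 (0.955), Slc4a8 (0.946) and Pld4 (0.946). These are descriptions over shared arrays, which also share their brightness.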

How the data were processed

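The arrays were Agilent 2-colour arrays, 1 for each of 24 mice, and the labels group 6 mice per genotype as separate biological replicates. Per the labels, RNA was isolated on columns, amplified and coupled to dyes, with no dye swap. The authors' deposited scanner files give spot intensity and local background for Cy5 and Cy3, and per the file headers Agilent's Feature Extraction software wrote them in version 9.1.3.1. The deposited log10 ratios of those files were used as an alternative. The authors' deposited table of log2 values was another: its columns correlated with the mean log2 of both channels by at least 1 when rounded and with the log2 ratio by at most 0.0432. It follows spot brightness, its centring is unknown, and its column medians ran from 8.62 to 10.6. No genome build is named for the arrays.

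With limma 3.58.1 in R 4.3.3, intensities were corrected by normexp (offset 50), each array was normalized by loess with control spots at no weight, outlier spots were left out and spots of a probe averaged. The R package data.table (version 1.17.8) read the scanner files. Probes with Cy5 well above background on at least 6 of 24 arrays were kept (35185 of 41174), and all 19 member probes passed. Only H2-K1 A_51_P198434 held saturated Cy5 spots, on 2 arrays. Comparisons came from 1 limma model of the 24 arrays with genotype as the only term and empirical Bayes moderation, adjusted by Benjamini-Hochberg over all probes, and it was tested on simulated data. The number of arrays limits the precision, and p-values measure the spread between these mice. Probes were kept apart because probes of a gene can disagree, and the brightest probe stands for a gene where 1 is named. Every member was named with every probe. Of the wider presentation lists, genes passing in any comparison were named (at most 10 per list). The members and lists were chosen with earlier results of these data known. Same-numbered arrays shared a slide in wild type, stathmin knockout and double knockout, while p27 knockout numbers followed another order. Of 36 pairs of same-numbered arrays 14 correlated by over 0.1, from -0.529 to 0.609 (median 0.0382). Arrays of 1 slide gave 21 of 36 pairs over 0.1 (median 0.146), and arrays sharing neither gave 52 of 162 (median -0.0267). The main model holds no term for slide, and slide as a block was run as an alternative. Alternatives covered background correction, source of the ratio, scaling, filter, saturated spots, blocks, weights, brightness and the arrays and probes used.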

Additional observations from a re-analysis of the deposited data

Results flagged for a closer look

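In 6 of the 40 groups of 6 mice examined (10 members, each at its brightest probe, in 4 genotypes), 1 mouse lay farther from the rest than the usual limit for such a gap, which chance passes in about 1 group of 20. In p27 knockout replicate 6, the dimmest array, H2-K1 was at 0.2746 when the nearest mouse was at 2.859. In the same mouse H2-Ab1 was at -1.265 (nearest 5.455), H2-Eb1 at -0.02613 (nearest 4.564) and Cd74 at -1.382 (nearest 6.399). Tap1 in double knockout replicate 1 stood high, at 3.775 against 3.073 in the next mouse. That array was the brightest of its genotype, with a 99th percentile of the Cy5 signal of 320 kilo-units. Ciita in stathmin knockout replicate 1 stood low, at 1.495 against 3.131 in the next mouse.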

How the results depend on the processing

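Results were recomputed under alternative settings, and with slide as a block together with leaving out p27 knockout replicates 5 and 6, a setting chosen after seeing the data. The 8 member probes called between double and p27 knockout became 13 from Cy5 alone (27.9% of all probes called) and 17 in the authors' deposited table (52% of all). They became 0 with brightness as a covariate (0.00284% of all), a fit that cannot tell brightness from genotype here. With only the groups compared 4 were called (16.5% of all), and without p27 knockout replicates 5 and 6 also 4 (15% of all). With 1 probe per gene 4 of 10 were called (28.8% of all). With the slide block and without those replicates 5 were called (20% of all). Leaving out each mouse in turn gave 7 to 10, when 8074 to 12101 of all probes were called. The fit with the replicate number as a block also called 8 and changed no call count of any other comparison. Between p27 knockout and wild type, where 0 were called, the authors' table gave 12, all lower (26.3% of all probes called), and array weights gave 1 (12.6% of all), H2-Eb1 at 0.78 (adjusted p = 0.0311 by limma), which reversed its direction. Leaving out 1 mouse gave 0 to 2, above 0 without wild type replicate 6 (2 members and 4111 of all probes) or without p27 knockout replicate 1 (2 and 3927) or 4 (1 and 3838). Array weights gave 1 member between double knockout and wild type (1.19% of all). For the interaction and the stathmin comparisons the count was 0 under each setting run, and 0 to 0 with a mouse left out, as for double knockout against wild type. Without p27 knockout replicate 6 alone, H2-Ab1 A_52_P683598 (-0.67, adjusted p = 0.0364) and H2-Eb1 (-0.61, adjusted p = 0.0298) were lower in the double than in the p27 knockout by limma. Both reversed the direction over all arrays. That fit keeps replicate 5, where the 4 H2-Ab1 probes ran from -1.25 to 6.63 and A_52_P683598 was the highest. The direction in that fit is therefore given for this probe only. Without both mice the H2-Ab1 probes were not all alike. A_52_P683598 and A_51_P215237 were lower in the double knockout on 4 of 4 slides. A_52_P570717 was higher on 1 of 4 and A_51_P215242 on 2 of 4. Over all left-out mice H2-Ab1 A_52_P683598 ran from -0.67 to 0.91 and H2-Eb1 from -0.61 to 0.45. With brightness as a covariate H2-DMa turned to -0.28 (adjusted p = 0.81). Of the values for single members under settings other than a left-out mouse, 853 kept their direction and call or moved by less than the spread between mice, and 55 uncalled values moved by more, 14 gained and 14 lost a call in an unchanged direction, and 2 reversed, H2-Eb1 with array weights and H2-DMa with the covariate, as given above. The cause of these shifts was not tested.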

Other observations

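B2m and Tap1 are also targets of interferon, so 20 other interferon-stimulated genes were read beside them. Their median log2 ratio was -1.08 to -0.21 in wild type, -0.64 to 0.05 in the p27 knockout, -0.39 to -0.10 in the stathmin knockout and -0.32 to 0.14 in the double knockout. Between double and p27 knockout 4 of the 20 were higher and 2 lower by limma, beside 13.3% and 16.8% of all probes, with a median of 0.28. Without p27 knockout replicates 5 and 6, 2 were higher and 0 lower, beside 6.04% and 8.95% of all probes, with a median of 0.21. The medullary thymic epithelium list, which holds Aire, had 4 of 9 genes higher in that comparison over all arrays and 0 without the 2 mice, beside the same shares. Without the 2 mice 3 of the 9 reached an unadjusted p under 0.05 by limma, and so did 12512 of all 35185 probes.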
